A study of Mus musculus with 2 samples.

Results

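The fibroblast growth factor (FGF) receptor genes Fgfr1, Fgfr2 and Fgfr3 and 7 genes of the ERK feedback and output arm (Spry1, Spry2, Spry4, Spred1, Dusp6, Etv4 and Etv5) were examined in cultured mouse neural retinal progenitor cells (mNRPCs) and in mouse retina. These 10 genes were listed by name because the mNRPC medium contains the receptors' ligand bFGF. All 10 were found among the 31253 genes to which the transcript rows of the expression table could be matched.

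The mNRPC library came from cells of the neural retina of adult C57BL/6 mice, grown to passage 24. By the study's methods, such cells grew on Matrigel-coated dishes in basic medium (BM) with bFGF and CHIR99021, an inhibitor of GSK3. The other library came from C57BL/6 retina tissue that was not cultured. No genetic change is given for either, and the labels do not give the age of the retina donors. Each group was 1 library of bulk total RNA, so no difference has a replicate check and no p-value is given. The mNRPC library stands for 1 culture at 1 passage. The presence of bFGF and CHIR99021, growth in culture, cell type and library cannot be told apart as sources of a difference.

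FGFs bind receptor tyrosine kinases on the cell surface, with heparan sulfate as a cofactor. The bound receptor recruits FRS2, GRB2 and SOS, which load RAS with GTP, and RAF, MEK and ERK then phosphorylate one another in turn. ERK raises transcription of its own inhibitors. Sprouty and SPRED proteins act at the level of RAS and RAF, the phosphatase DUSP6 removes phosphate from ERK, and the PEA3 group of ETS transcription factors (ETV1, ETV4 and ETV5) carries the signal to target genes. In the vertebrate eye, FGF signalling takes part in specifying neural retina, and FGFs are mitogens for retinal progenitors in culture. Messenger RNA of these genes is a readout of transcript level and not of ERK phosphorylation, which was not measured in these files.

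Levels are given in FPKM, fragments per length of transcript and per size of library, summed over the rows of a gene. FPKM is scaled for transcript length, so levels of different genes may be set side by side. The log2 ratio of mNRPC over retina was taken after adding 1 FPKM to both values, which understates the change of low genes. Folds were taken between FPKM values with nothing added. A gene was compared if it reached 1 FPKM in at least 1 library, and was called higher or lower at a log2 ratio of 1 or more in size. For a gene that reached 1 FPKM in 1 library alone, this minimum fixed the direction of its ratio. The intervals are 95% exact binomial intervals on estimated fragment numbers. They cover counting error only and say nothing of the spread between cultures or animals. The estimated depth was 7.11e+06 fragments for mNRPC and 5.76e+06 for retina.

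Of the 10 genes, 8 reached 1 FPKM in at least 1 library, and 7 of these were called higher in mNRPCs. Dusp6, Etv4, Spry4, Fgfr1, Etv5, Spred1 and Spry1 were called higher, Spry2 was within 2-fold, and 0 were called lower. The median log2 ratio of the 8 genes was 1.60. Spry1 reached 1 FPKM in mNRPCs alone, so that the minimum fixed its direction in the count of 7 and in this median. Among all 13780 genes compared, 24.5% were called higher and 30.0% lower, with a median log2 ratio of −0.12. The members were picked by name as pathway genes, and the counts are set side by side as a description. With both libraries brought to one FPKM sum, 6 members were called higher, against 18.4% of all genes called higher and 42.4% called lower. At a log2 ratio of 2 or more, 3 members were higher, against 11.2% of all genes higher and 14.1% lower. Under the other settings tried, 17.6% to 27.4% of genes at a threshold of 1 and with a minimum were called higher and 25.9% to 44.2% lower. Fgfr2 and Fgfr3 were under the floor of 3 fragments in both libraries and were not compared.

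**Figure D1:**
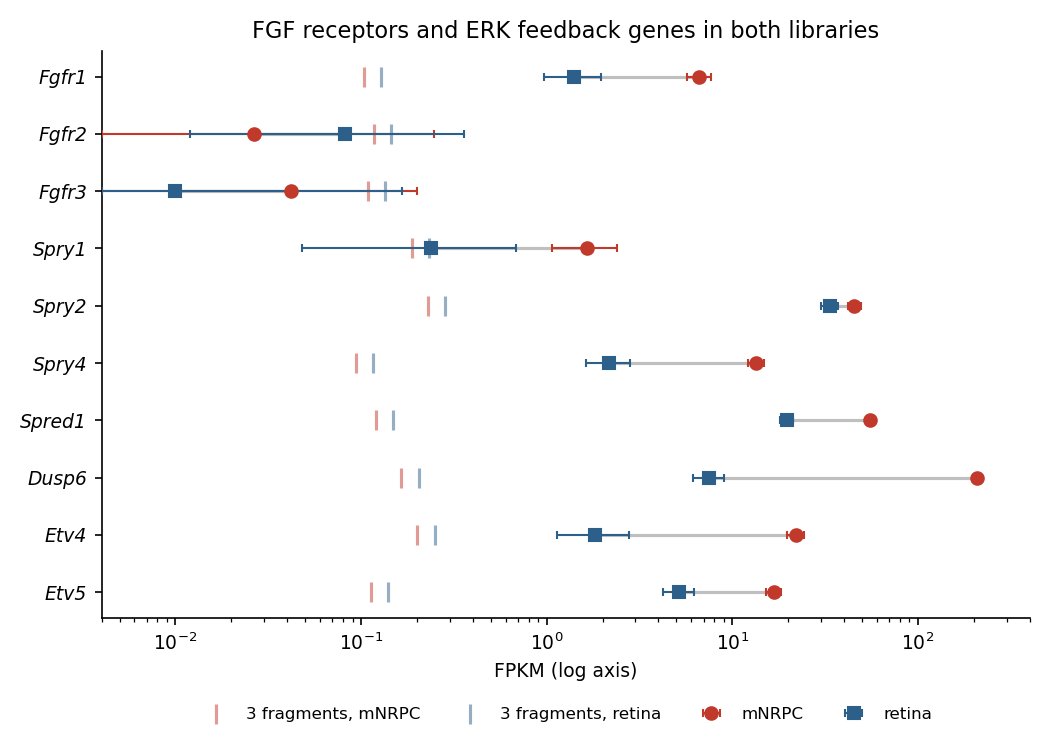
FPKM of each of the 10 genes (log axis) in the mNRPC library (red circles) and the retina library (blue squares), with 95% counting intervals and short vertical marks at the level of 3 fragments. The circle lies to the right of the square for the 8 genes compared, by the widest gap at Dusp6 (207 against 7.47 FPKM). Fgfr2 and Fgfr3 lie left of both marks, and intervals that reach below the axis are cut at its edge.

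In mNRPCs the order of levels was Dusp6, Spred1, Spry2, Etv4, Etv5, Spry4, Fgfr1 and Spry1, and the counting intervals of neighbours did not overlap. The place of Etv4 rests on predicted rows, and with curated rows only it was at 1.67 FPKM, below Fgfr1. In retina the order began with Spry2, Spred1 and Dusp6. The intervals of Dusp6 (6.14 to 9.01 FPKM) and of Etv5 (4.25 to 6.22 FPKM) overlapped in retina. Spry4, Etv4 and Fgfr1 followed with overlapping intervals, and Spry1 was lowest of the 8 when predicted rows were counted. By rank among all genes, Dusp6 stood at 371 in mNRPCs and at 7791 in retina, while Spry2 stood at 1930 and 2239. Spry2 was therefore the most abundant of these transcripts in retina and the third in mNRPCs.

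**Figure D2:**
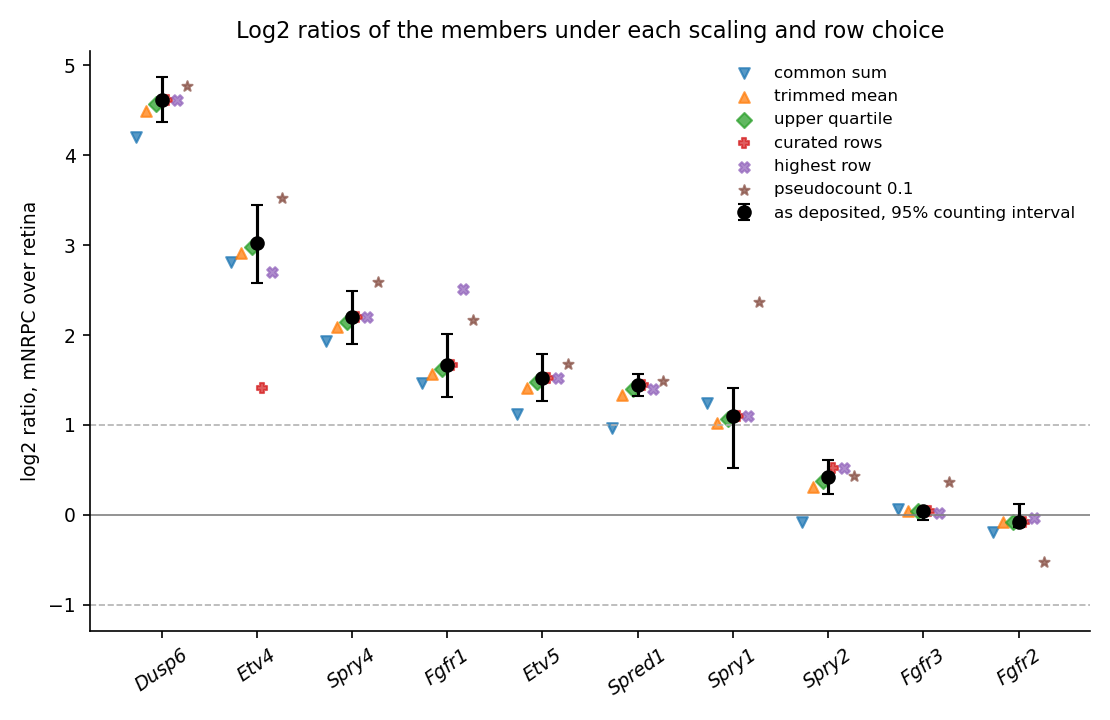
Log2 ratio of mNRPC over retina for each gene, as deposited with 1 added to each FPKM (black circles, 95% counting intervals) and under other scalings, row choices and a pseudocount of 0.1 FPKM (coloured marks). Dashed lines mark a ratio of 1 in size. The black circles run from 0.42 for Spry2 to 4.62 for Dusp6 among the 8 genes compared, the Etv4 mark for curated rows lies at 1.41, and Fgfr2 and Fgfr3 were below 1 FPKM in both libraries.

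Among the receptors, Fgfr1 carried nearly all the matched FPKM in mNRPCs and the larger part of it in retina. Fgfr1 (chromosome 8, 25518759 to 25575718, GRCm38.p6) encodes a receptor tyrosine kinase that binds bFGF. Fgfr1 was at 6.65 FPKM in mNRPCs (interval 5.70 to 7.70) and 1.41 FPKM in retina (0.967 to 1.97). The log2 ratio was 1.67 (1.31 to 2.01), a 4.72-fold difference (3.25 to 7.09). Fgfr1 thus stood higher in mNRPCs by more than the counting error, and 85.3% of all genes compared had a lower ratio.

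Most of the Fgfr1 difference lay in 1 of its 3 transcript rows. Row NM_001079909 was at 4.72 FPKM in mNRPCs, 70.9% of the gene, and was close to 0 in retina. Row NM_001079908 held 16.7% of the gene in mNRPCs and 71.9% in retina, and row NM_010206 held 12.4% and 28.1%. In the GENCODE M21 annotation the transcript of NM_001079909 has 16 coding exons, against 17 in the other two. It lacks a coding exon of 267 bases at chr8:25555508-25555774 (GRCm38), which encodes the first immunoglobulin-like domain of the receptor. Receptors without that domain are known as the beta form of FGFR1. Without that row, the Fgfr1 level was 1.93 FPKM for mNRPCs and 1.41 FPKM for retina, and the log2 ratio became 0.28. The division of fragments among rows that share most exons is an estimate, and it was not checked against reads.

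Fgfr2 (chromosome 7, 130162451 to 130266808) was at 0.0265 FPKM in mNRPCs and 0.0821 FPKM in retina, which correspond to an estimated 0.601 and 1.66 fragments. Fgfr3 (chromosome 5, 33721724 to 33737068) was at 0.0418 and 0.00994 FPKM, or 1.16 and 0.222 fragments. Both genes were under the level of 3 fragments in both libraries, and no difference could be measured at this depth. Many predicted transcript rows could not be matched to a gene, and 0 predicted rows were matched to Fgfr1, Fgfr2 or Fgfr3. These sums cover matched rows only, and the low values of Fgfr2 and Fgfr3 are no measure of absence. The receptor Fgfr4 was listed at 0 in mNRPCs and at 0.718 FPKM in retina. Of the receptor FPKM so matched, Fgfr1 made up 99.0% in mNRPCs (95.9 to 99.9) and 63.5% in retina (47.2 to 77.0). The retina share depends on the rows counted. With only the highest row of each gene over both libraries, which for Fgfr1 is the row close to 0 in retina, Fgfr4 made up 93.4% of the retina sum.

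The 3 Sprouty genes in the set differed between the libraries by unequal amounts. Sprouty proteins are inhibitors of receptor tyrosine kinase signalling that ERK itself induces. Spry2 (chromosome 14, 105891947 to 105896819) was at 45.5 FPKM in mNRPCs and 33.6 FPKM in retina. Its log2 ratio of 0.42 (0.24 to 0.61) was under the threshold, with a fold of 1.35 (1.18 to 1.54). Once both libraries were brought to one FPKM sum the log2 ratio of Spry2 was −0.08, so its direction depends on the scaling. Spry2 stood above the all-gene median by 0.55 on the log2 scale with the deposited values and by 0.61 with that rescaling.

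Spry4 (chromosome 18, 38586247 to 38601347) was at 13.5 FPKM in mNRPCs and 2.15 FPKM in retina. The log2 ratio was 2.20 (1.90 to 2.49), a 6.25-fold difference (4.72 to 8.40). Spry1 (chromosome 3, 37639947 to 37644599) was at 1.64 and 0.238 FPKM. It reached 1 FPKM in mNRPCs alone, so that the minimum fixed its direction. Its retina value corresponds to 3.07 fragments, so that the 6.90-fold difference has a wide interval (2.15 to 36.2). Spry1 was the lowest of the 8 genes compared in both libraries with all rows counted, and the lower end of its log2 interval, 0.52, lies under the threshold.

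Summed over Spry1 to Spry4, the family stood at 60.6 FPKM in mNRPCs and 43.6 FPKM in retina. Spry2 made up 75.0% of this sum in mNRPCs and 77.1% in retina, with overlapping intervals (72.6 to 77.3 and 73.5 to 80.4). Spry4 made up 22.2% in mNRPCs and 4.94% in retina. Spry3, the member of the family outside the set of 10, was at 0.0438 FPKM in mNRPCs and 7.57 FPKM in retina, or 17.4% of the retina sum. The second Sprouty transcript in each library was therefore Spry4 in mNRPCs and Spry3 in retina.

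Spred1 (chromosome 2, 117121071 to 117182279) encodes a Sprouty-related protein that holds neurofibromin at the membrane and so restrains RAS. It was at 55.2 FPKM in mNRPCs (52.9 to 57.5) and 19.6 FPKM in retina (18.1 to 21.2). The log2 ratio was 1.45 (1.33 to 1.57), a 2.82-fold difference (2.58 to 3.08). With one FPKM sum for both libraries it was 0.97, just under the threshold. Spred1 was the leading SPRED transcript in both libraries, with 66.0% of the family sum in mNRPCs and 54.7% in retina. Spred2 was at 12.8 and 3.43 FPKM, a log2 ratio of 1.64, and Spred3 at 15.6 and 12.8 FPKM, a log2 ratio of 0.26.

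Dusp6 (chromosome 10, 99263231 to 99267489) encodes a cytoplasmic phosphatase specific to ERK and is a standard transcriptional readout of FGF signalling. It was at 207 FPKM in mNRPCs (201 to 214) and 7.47 FPKM in retina. The log2 ratio was 4.62 (4.37 to 4.87), a 27.7-fold difference (22.9 to 33.8). Dusp6 had the highest ratio of the 8 members compared, and 98.5% of all genes compared had a lower one.

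The 5 ERK phosphatase genes Dusp4, Dusp5, Dusp6, Dusp7 and Dusp9 summed to 273.7 FPKM in mNRPCs and 63.2 FPKM in retina. Dusp6 made up 75.8% of that sum in mNRPCs (74.6 to 76.9) and 11.8% in retina (9.82 to 14.1). In retina the leading gene was Dusp7, at 49.8%, which made up 9.12% in mNRPCs. The first place within this family was thus held by different genes in the 2 libraries.

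Etv4 and Etv5 encode PEA3 group factors, ETS proteins whose transcription depends on FGF signalling in many embryonic tissues. Etv4 (chromosome 11, 101769747 to 101785310) was at 21.9 FPKM in mNRPCs and 1.82 FPKM in retina. The log2 ratio was 3.02 (2.58 to 3.45), a 12.1-fold difference (7.81 to 19.5). Predicted transcript rows held 92.4% of Etv4 in mNRPCs and nearly all of it in retina. With curated rows only Etv4 was at 1.67 FPKM in mNRPCs and 0.000444 FPKM in retina, far under the level of 3 fragments. The log2 ratio of 1.41 is then bounded by the 1 FPKM added and does not measure a smaller difference.

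Etv5 (chromosome 16, 22381313 to 22439570) was at 16.7 FPKM in mNRPCs (15.2 to 18.3) and 5.15 FPKM in retina. The log2 ratio was 1.53 (1.26 to 1.79), a 3.25-fold difference (2.62 to 4.02). Etv5 was 1 of the 7 members higher in mNRPCs, with a ratio about as high as those of Spred1 and Fgfr1, whose intervals overlap its own.

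Etv1, the remaining PEA3 gene, was at 41.9 FPKM in mNRPCs and 2.73 FPKM in retina, a log2 ratio of 3.52. The 3 PEA3 genes summed to 80.5 FPKM in mNRPCs and 9.70 FPKM in retina, an 8.30-fold difference. Etv1 made up 52.0% of the sum in mNRPCs and 28.2% in retina. Etv5 made up 20.8% in mNRPCs and 53.1% in retina, so that it was first of the 3 in retina. The order of Etv4 and Etv5 in mNRPCs turned with the rows counted. Etv4 made up 27.2% of the sum over all rows, 3.41% with curated rows only (Etv5 34.2%) and 18.2% with the highest row of each gene (Etv5 33.5%).

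**Figure D3:**
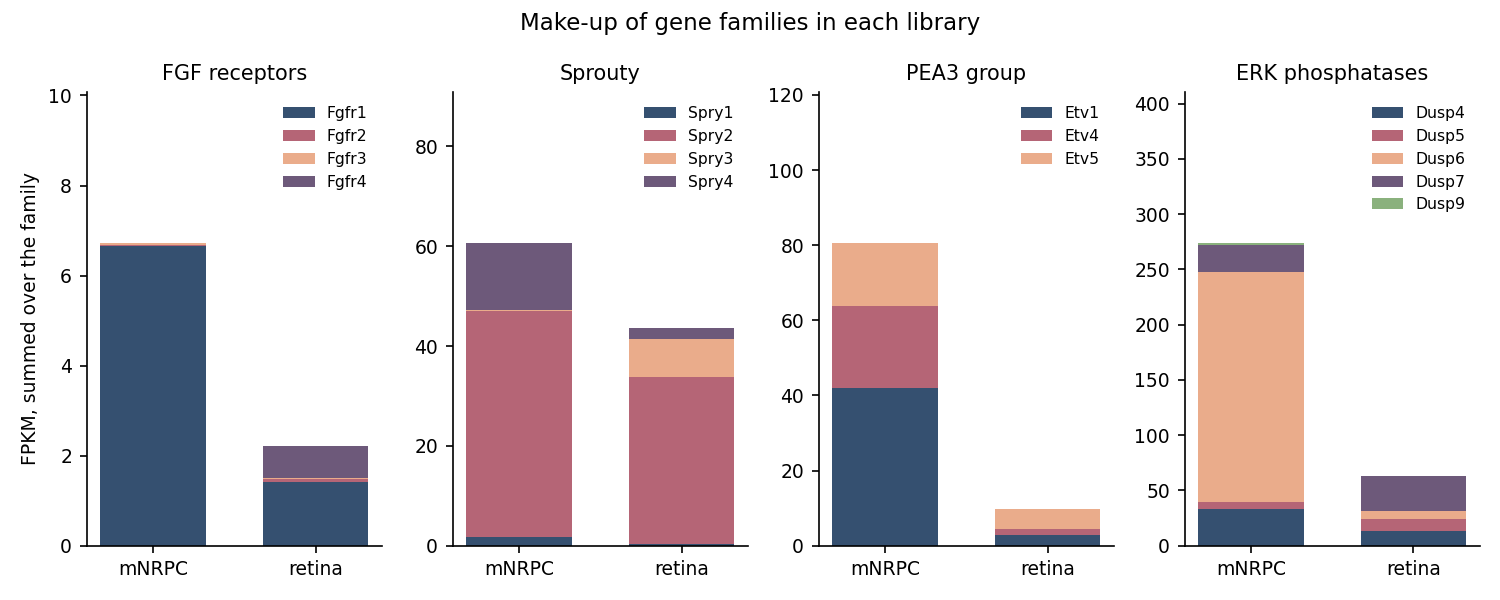
FPKM summed over each of 4 gene families in the mNRPC and the retina library, with each bar stacked by gene and an axis of its own for each family. The Sprouty bars stand at 60.6 and 43.6 FPKM with Spry2 as the main block in both, while Dusp6 is 75.8% of the ERK phosphatase bar in mNRPCs and 11.8% in retina.

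The 250 bases before the transcription start, from RefSeq (GRCm38.p6), were taken for 7 of the 10 genes, in 9 windows. They were searched on both strands for the ETS motifs CCGGAAG and AGGAAG, the AP-1 motif TGAGTCA and the CRE motif TGACGTCA, none of which contains another. These occur in 6.91%, 29.5%, 4.46% and 1.55% of all 32851 windows of this length. Only 2 of the 9 member windows held a match, both to AGGAAG, in Dusp6 and Fgfr2. The Dusp6 and Fgfr2 windows are shown because they hold the matches, and the Spry2 window as that of the gene within 2-fold, without a match. Capitals mark the motif, which reads CTTCCT in Dusp6 because it lies on the opposite strand. It begins 210 bases before the start in Dusp6 (chr10:99262981-99263230, plus strand) and 208 bases before it in Fgfr2 (chr7:130266809-130267058, minus strand). The Spry2 window is chr14:105896820-105897069, minus strand. A match to these letters is a description, and binding was not measured.
Dusp6: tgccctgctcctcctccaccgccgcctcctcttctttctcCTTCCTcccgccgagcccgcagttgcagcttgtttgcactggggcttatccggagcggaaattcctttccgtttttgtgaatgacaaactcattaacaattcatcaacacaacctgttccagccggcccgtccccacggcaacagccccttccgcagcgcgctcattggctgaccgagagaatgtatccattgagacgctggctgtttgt
Fgfr2: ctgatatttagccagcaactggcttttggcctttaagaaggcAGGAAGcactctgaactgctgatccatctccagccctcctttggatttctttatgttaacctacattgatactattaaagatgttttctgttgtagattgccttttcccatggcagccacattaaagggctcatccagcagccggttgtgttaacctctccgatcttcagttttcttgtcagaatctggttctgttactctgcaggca
Spry2: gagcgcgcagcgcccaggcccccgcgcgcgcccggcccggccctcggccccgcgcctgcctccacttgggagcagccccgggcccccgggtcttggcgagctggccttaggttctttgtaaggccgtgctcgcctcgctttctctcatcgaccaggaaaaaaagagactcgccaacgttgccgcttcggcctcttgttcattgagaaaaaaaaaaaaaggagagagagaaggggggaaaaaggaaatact

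**Figure D4:**
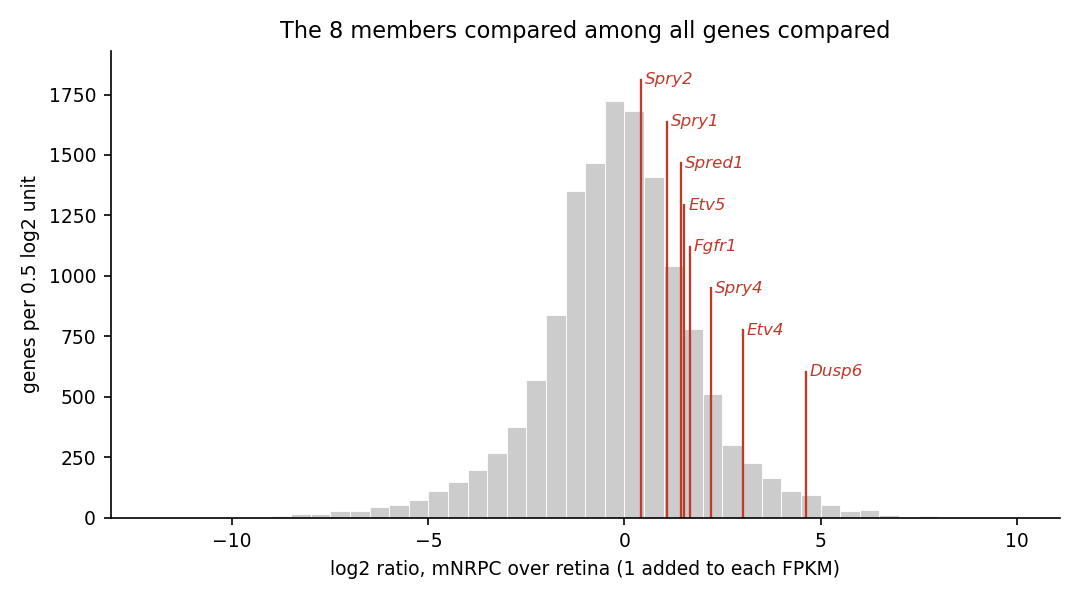
Number of genes per step of 0.5 in log2 ratio of mNRPC over retina, for the 13780 genes compared, with the 8 members compared as red lines of arbitrary height. The members lie between 0.42 (Spry2) and 4.62 (Dusp6), and the median of all genes is at −0.12.

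The other genes of the pathway were described by lists, from ligand to output. The counts are to be read beside all genes compared, of which 24.5% were called higher and 30.0% lower. With one FPKM sum these shares were 18.4% and 42.4%. A count near these shares says nothing particular to its list. Of 18 secreted FGF ligand genes, 5 were compared, 0 were called higher and 4 lower, with a median log2 ratio of −2.14. All 5 reached 1 FPKM in retina and 0 did in mNRPCs, so that the minimum itself fixed the direction of this count and median. With one FPKM sum for both libraries 7 were lower, and with curated rows only 2 were. In mNRPCs 11 of the 18 were listed at 0. Fgf2, which encodes bFGF itself, was at 0.101 FPKM in mNRPCs and 3.86 FPKM in retina, a log2 ratio of −2.14. Fgf1 was at 0.922 and 11.3 FPKM (log2 ratio −2.68), and Fgf9 at 0.0311 and 9.20 FPKM (log2 ratio −3.31). The ligand that the medium supplies was thus low as a transcript in the cells. All 4 FGF homologous factors, intracellular proteins that bind sodium channels, were lower in mNRPCs. Fgf12 was listed at 0 in mNRPCs and at 22.0 FPKM in retina. Fgf13 was at 2.35 and 21.0 FPKM, Fgf11 at 1.08 and 5.38 FPKM, and Fgf14 was listed at 0 and at 5.85 FPKM. Fgf12 and Fgf14 reached 1 FPKM in retina alone, so that the minimum fixed their direction. With curated rows only, 3 of the 4 were lower.

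Among 16 other receptors and coreceptors, 13 were compared, of which 9 were called higher and 3 lower (median log2 ratio 1.94). With one FPKM sum for both libraries, 7 were higher and 5 lower. Fgfrl1, a receptor that lacks the kinase domain, was at 55.3 FPKM in mNRPCs and 2.47 FPKM in retina (log2 ratio 4.02). Heparan sulfate proteoglycans, which hold FGF at the receptor, included Gpc1 at 92.1 and 9.10 FPKM (3.20), Gpc4 at 60.6 and 1.96 FPKM (4.38) and Sdc1 at 29.8 and 0.335 FPKM (4.53). Of the 9 syndecans and glypicans compared, 6 were called higher and 2 lower, Gpc3 at 0.125 and 4.75 FPKM (−2.35) and Sdc3 at 7.12 and 20.5 FPKM (−1.41), which were singled out after their values were seen. Fgfrl1, Gpc1 and Gpc4 each exceeded the Fgfr1 level of 6.65 FPKM in mNRPCs, which covers matched rows only. In this list Sdc1 reached 1 FPKM in mNRPCs alone and Gpc3 and Flrt1 in retina alone, so that the minimum fixed their direction.

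Of 12 adaptor genes, 2 were called higher, 1 lower and 9 were under the log2 threshold (median log2 ratio 0.05). Only 1 was higher with one FPKM sum for both libraries or with trimmed mean scaling. Shc1, an adaptor of many receptor kinases, was at 114 FPKM in mNRPCs and 6.26 FPKM in retina (log2 ratio 3.98). Plcg1, the phospholipase C that FGFR1 phosphorylates, was at 17.8 and 8.03 FPKM (1.06). Frs3, a docking protein related to FRS2, was at 3.43 and 12.5 FPKM (−1.61), and Gab2 was at 5.81 and 2.70 FPKM (0.88).

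Of the 14 genes of the RAS to ERK core, 5 were called higher, 3 lower and 6 were under the log2 threshold (median log2 ratio 0.12). Map2k1, encoding MEK1, was at 51.0 FPKM in mNRPCs and 50.1 FPKM in retina (log2 ratio 0.03). Mapk3, encoding ERK1, was at 126 and 50.4 FPKM (1.30), and Map2k2, encoding MEK2, at 20.4 and 9.03 FPKM (1.09). Nras, a RAS gene, was at 64.6 and 10.4 FPKM (2.52). Araf, at 37.2 and 125 FPKM (−1.72), and Braf, at 4.40 and 21.0 FPKM (−2.03), were lower in mNRPCs. With one FPKM sum for both libraries, 1 of the 14 was higher and 6 were lower.

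Of 13 other feedback inhibitors, 4 were called higher, 3 lower and 6 were under the log2 threshold (median log2 ratio −0.51). These are 30.8% and 23.1%, near the 24.5% and 30.0% of all genes compared. With one FPKM sum for both libraries, 3 were higher and 7 lower. Il17rd (Sef), a membrane inhibitor of FGF signalling, was at 5.35 FPKM in mNRPCs and 0.254 FPKM in retina (log2 ratio 2.34). Pea15a, which keeps ERK in the cytoplasm, was at 50.1 and 210 FPKM (−2.04). Il17rd and Dusp9 reached 1 FPKM in mNRPCs alone and Spry3 in retina alone, so that the minimum fixed their direction. Of 6 phosphatases that act on JNK and p38, 5 were compared, 0 were called higher and 2 lower. Dusp8 was at 1.40 FPKM in mNRPCs and 36.7 FPKM in retina (−3.97), in the opposite direction to Dusp6, and Dusp1 was at 4.88 and 13.7 FPKM (−1.32). Dusp10, at 7.16 and 7.0 FPKM (0.03), and Dusp14, at 9.32 and 16.8 FPKM (−0.78), were under the log2 threshold.

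Of 16 other genes with transcription downstream of ERK, 13 were compared, of which 6 were called higher and 4 lower (median log2 ratio 0.63). With one FPKM sum for both libraries, 6 were higher and 7 lower. Ccnd1, encoding cyclin D1, was at 371 FPKM in mNRPCs and 4.26 FPKM in retina (log2 ratio 6.14). Fosl1, a subunit of AP-1, was at 38 and 0.111 FPKM (5.13), the retina value resting on 1.04 estimated fragments, and the ephrin receptor gene Epha2 at 43.2 and 0.507 FPKM (4.87). Ier3, an early response gene, was at 0.468 and 51.2 FPKM (−5.15). Fos and Egr1, early response genes singled out after their values were seen, were at 3.39 and 8.19 FPKM in mNRPCs and 30.8 and 22.9 FPKM in retina. Fosl1, Epha2 and Myc reached 1 FPKM in mNRPCs alone and Ier3 and Epha4 in retina alone, so that the minimum fixed their direction. The ERK output genes did not share a direction.

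Of 11 ETS genes outside the PEA3 group, 4 were called higher and 1 lower (median log2 ratio 0.38). Elk3 was at 33.1 FPKM in mNRPCs and 1.84 FPKM in retina (log2 ratio 3.59), Ets1 at 9.45 and 0.150 FPKM (3.18), and Erf, a repressor that ERK exports from the nucleus, at 21.0 and 3.94 FPKM (2.15). Etv6, a repressor of the ETS family, was at 14.1 and 4.51 FPKM (1.46). Ets1 reached 1 FPKM in mNRPCs alone and Elk4 in retina alone, so that the minimum fixed their direction.

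**Figure D5:**
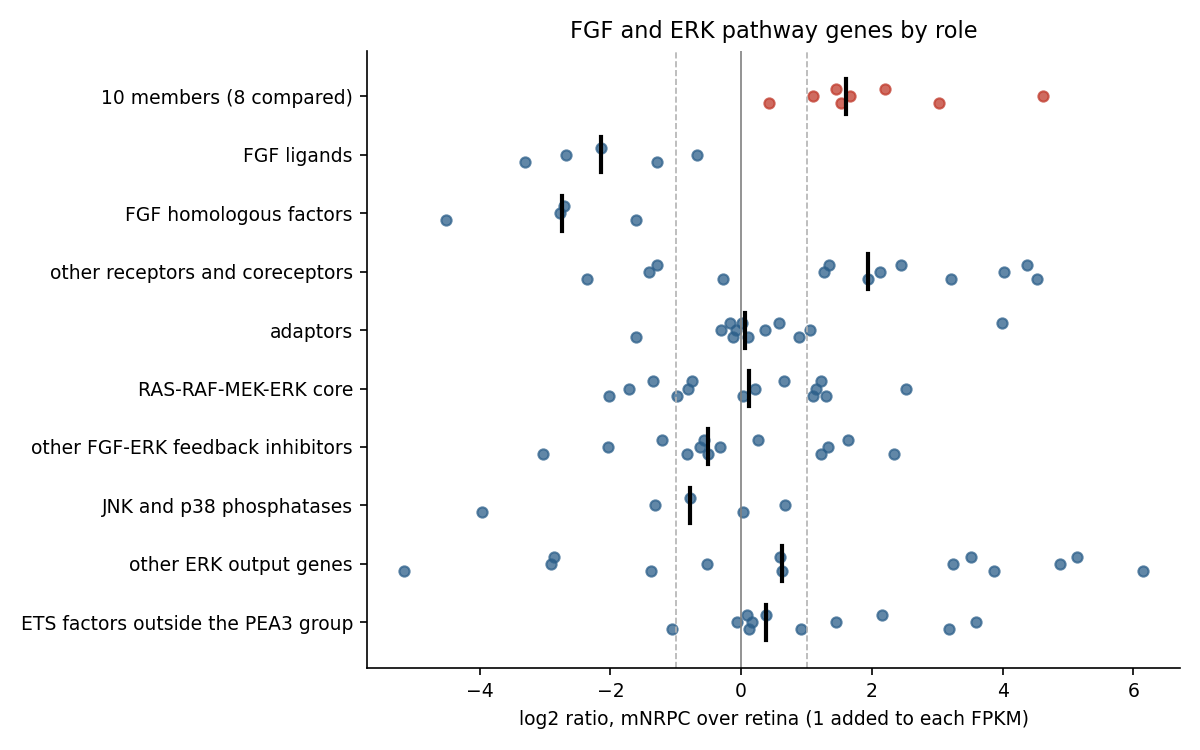
Log2 ratio of mNRPC over retina (1 added to each FPKM) for each gene compared, by list, as points, with the median of each list as a black bar; members are red and dashed lines mark a ratio of 1 in size. The median lies at 1.94 for the other receptors and coreceptors, 0.12 for the RAS to ERK core and 1.60 for the 8 members, while the FGF ligands compared reached 1 FPKM in retina alone and could lie only to the left.

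The cell types in the 2 libraries differed in their markers. All 12 rod markers and all 8 cone markers were lower in mNRPCs. Their summed levels were 9.03 and 1.11 FPKM in mNRPCs against 22418.5 and 957.9 FPKM in retina. Of these, 3 rod and 0 cone markers reached 1 FPKM in mNRPCs, so that the minimum fixed the direction of the others. All 10 Müller glia markers (86.8 against 2365 FPKM) were lower in mNRPCs, and 4 of them reached 1 FPKM there. The 5 astrocyte markers summed to 0.314 against 53.9 FPKM, the 8 pigment epithelium markers to 0.444 against 91.1 FPKM, and the 7 microglia markers to 0.00796 against 5.98 FPKM. Of 12 markers of inner retinal neurons, 11 were lower (17.8 against 561 FPKM), and 5 of the 12 reached 1 FPKM in mNRPCs. The 8 endothelium and pericyte markers summed to 4.64 against 48.0 FPKM. Of the 6 compared, 5 were lower in mNRPCs and 1 was higher, Pdgfrb, at 4.49 and 1.24 FPKM (log2 ratio 1.29). The 5 lower genes reached 1 FPKM in retina alone, so that the minimum fixed their direction. Of 12 retinal progenitor markers, 6 were higher in mNRPCs and 4 lower (836 against 302 FPKM). Ccnd1 and Sox2 carried the excess, and without these 2 the other 10 summed to 234 and 279 FPKM. Nes reached 1 FPKM in mNRPCs alone and Rax, Six6 and Hes5 in retina alone, so that the minimum fixed their direction. Rax, Six6 and Hes5 were listed at 0 in mNRPCs. All 8 proliferation genes were higher in mNRPCs, with sums of 575 and 100.1 FPKM. Only 3 of the 8 reached 1 FPKM in retina, and the minimum fixed the direction of the others. Of the 5 fibroblast markers compared, 1 was higher, Col3a1, at 450 and 0.311 FPKM. Col3a1 reached 1 FPKM in mNRPCs alone, so that the minimum fixed its direction. The marker differences lie between the same 2 libraries as those of the 8 members, and the part of cell make-up in the result was not tested. In bulk RNA, fewer cells of a type and less RNA per cell cannot be told apart.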

How the data were processed

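RNA was sequenced from 1 mNRPC library (passage 24) and 1 retina library. The authors deposited FPKM values per RefSeq transcript. By their methods reads were mapped with Bowtie 2 and FPKM was computed with eXpress, whereas the submitters' processing notes name TopHat2 2.0.10 and GRCm38.p3. Which was used for this table is not settled, and the series text and the methods name different sequencers. Read counts were not used here.

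The 106754 rows were matched by accession to RefSeq genes (GRCm38.p6): 74283 matched, 99.6% of curated and 55.8% of predicted rows. Rows without a gene held 6.80% of FPKM in mNRPC and 10.1% in retina. Values at or under 1e-06 were read as 0, and a 0 can be a failed estimate. Depth was estimated from the spacing of low FPKM values. Of 651 and 697 low rows, 55.9% and 51.8% lay within 0.2 of a whole fragment, against 40% by chance, so the intervals are approximate. The pseudocount was 1 FPKM, the minimum 1 FPKM and the threshold 1 on the log2 scale. With 1 library per group no test was run. The calculation was tested on simulated data.

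All 10 members were named, and for each pathway list the 4 genes with the largest log2 ratio in size among those with at least 5 FPKM, with Fgf2, Fgfr4, Spry3, Etv1, Mapk3, Map2k1 and Map2k2. Some genes that this rule names are not reported here. The members and lists were chosen with earlier results of these data known. Alternatives were another pseudocount, 4 rescalings, curated rows only, the highest row of a gene, other minimums and another threshold. Python 3.11.15, pandas 2.3.3, numpy 2.4.6 and scipy 1.17.1 were used.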

Additional observations from a re-analysis of the deposited data

How the results depend on the processing

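No paired analysis was possible because there is 1 library per group, and for the same reason no library could be left out. The count of 7 members higher in mNRPCs was 6 or 7 under every other pseudocount, scaling, row choice and minimum tried. At a log2 threshold of 2 it was 3, as that threshold requires a larger ratio. The median log2 ratio of 1.60 was 2.26 with a pseudocount of 0.1 FPKM, which shrinks low genes less. It was 1.31 after rescaling to a common sum without rod and cone genes, where 6 members were called higher. The cause was not tested. No member was called lower under the settings run. The share of higher calls among all calls was 44.9% as deposited, 30.2% after rescaling to a common sum and 50.9% at a minimum of 5 FPKM. Rescaling to a common sum lowered mNRPC against retina by 0.51 on the log2 scale before the 1 FPKM is added. It also raised both libraries against that 1 FPKM and the minimum, so that single log2 ratios moved by other amounts and 14961 genes were compared. Of 79 alternative log2 ratios of members, 53 stayed within the counting interval and 26 moved beyond it. Of 44 alternative shares within the receptor, Sprouty and PEA3 families 13 moved, and of 180 counts over pathway lists 29 moved by over 1.5 times or to or from 0. The moved shares are of Fgfr1 and Fgfr4 in retina and of the PEA3 genes. Ranges were −0.16 to 0.52 for Spry2, 0.28 to 2.51 for Fgfr1, 1.41 to 3.59 for Etv4 and 4.13 to 4.79 for Dusp6. The value of 0.28 for Fgfr1 leaves out its main mNRPC row, an alternative added after the data were seen, as were the folds with no pseudocount. Depth limits Fgfr2, Fgfr3 and Spry1, which rest on about 3 fragments or fewer in retina.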
